A study of Mus musculus with 14 samples.

Results

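In mouse liver, 10 genes that respond to mechanical signals were followed, 5 of them known as targets of the co-activator YAP and 5 as members or targets of the serum response factor (SRF) programme. The YAP targets were Ccn1, Ccn2, Ankrd1, Amotl2 and Anxa2, and the SRF group was Srf itself, Vcl, Tagln, Myl9 and Tpm1. A gene was read from the probe set that the array annotation ties to its symbol alone, and from the brightest such probe set where there were several. All 10 genes were measured, out of 22180 genes with a probe set of their own. Liver RNA from 14 male C57BL/6 mice had been hybridized to whole-transcript arrays, 1 mouse per array. Every mouse, controls included, carried Alb-Cre, which makes Cre recombinase under the albumin promoter, so floxed Lmna is removed in hepatocytes. Whether other cells of the liver keep it was not examined here. Lmna encodes lamin A and lamin C.

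There were 5 groups. KO mice (LMNA flx/flx; Alb-cre+) on a high-fat diet (HFD) gave arrays C2, C3 and C4 and were 35.3 weeks old. HET mice (LMNA flx/+; Alb-cre+) on HFD gave arrays A2, B1 and B2, at 30 to 30.4 weeks. KO mice on normal chow gave H1, H2 and I1, at 38.9 weeks, and HET mice on chow gave F1, F2 and P1, at 24 to 26.4 weeks. Mice with no floxed copy (WT, LMNA +/+; Alb-cre+) were studied on chow alone and gave arrays G1 and N1, at 27 and 24.6 weeks. Each diet was given for 14 weeks, and HFD was the Surwit diet with 42 g/L of carbohydrate in the drinking water, 55% of it fructose and 45% sucrose. KO mice were on average 5.17 weeks older than HET mice on HFD and 13.3 weeks older on chow, so age and genotype cannot be told apart in any KO comparison below. Age also differed between diets, since KO mice on HFD were younger than KO mice on chow and HET mice on HFD, at a mean of 30.1 weeks, were older than HET mice on chow at 25.6 weeks. Age and diet cannot be told apart in the diet comparisons either.

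YAP is held in the cytoplasm by phosphorylation through the Hippo kinases, and in the nucleus it works through the DNA-binding TEAD proteins to switch on secreted and cytoskeletal genes. SRF binds the CArG box and is driven by its cofactors of the MRTF family, which are released when actin monomers are built into filaments. Stretch, stiff matrix and cell spreading act on both routes, and the nuclear lamina is coupled to actin through linker proteins of the nuclear envelope. In liver, YAP activity is known for its part in organ size and regeneration, and both programmes are known for their part in the activation of hepatic stellate cells.

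Promoters were examined for the short sequences that these factors bind, to show which genes carry them close to the start. The RefSeq promoter table (GRCm38.p6, 250 bases before to 50 after a gene's start) held 8 of the 10 genes; Ccn2 and Tagln were not matched. Both strands were searched for the TEAD core, GGAATG or its reverse CATTCC, and for the CArG box of SRF. Below, capitals mark these matches with 20 bases on either side, each on the gene's own strand. A stretch of 100 bases directly before the start stands for Anxa2, which had no match.
Ccn1, chr3:145650063-145650108 on the minus strand: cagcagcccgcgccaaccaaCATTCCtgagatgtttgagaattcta
Ankrd1, chr19:36119942-36120074 on the minus strand: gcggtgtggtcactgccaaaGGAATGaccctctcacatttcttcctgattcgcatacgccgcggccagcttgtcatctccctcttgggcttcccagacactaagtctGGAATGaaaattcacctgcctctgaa
Amotl2, chr9:102717719-102717764 on the plus strand: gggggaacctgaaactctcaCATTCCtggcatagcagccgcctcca
Anxa2, chr9:69453583-69453682 on the plus strand: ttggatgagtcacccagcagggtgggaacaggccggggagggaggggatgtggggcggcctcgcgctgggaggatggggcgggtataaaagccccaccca
Srf, chr17:46556195-46556264 on the minus strand: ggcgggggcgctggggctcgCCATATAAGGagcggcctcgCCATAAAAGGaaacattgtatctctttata
Vcl, chr14:20929151-20929280 on the plus strand: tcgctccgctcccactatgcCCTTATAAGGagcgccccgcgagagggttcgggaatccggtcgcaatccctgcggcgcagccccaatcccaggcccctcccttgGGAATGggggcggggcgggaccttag
Myl9, chr2:156775283-156775332 on the plus strand: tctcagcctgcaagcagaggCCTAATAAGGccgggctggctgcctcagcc
Tpm1, chr9:67049244-67049289 on the minus strand: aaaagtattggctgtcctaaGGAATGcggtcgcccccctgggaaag

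The TEAD core stood in 5 of the 8 promoters, those of Ccn1, Ankrd1, Amotl2, Vcl and Tpm1. It stood in 14.7% of all 32851 promoters of this length, so a single match is common. Ankrd1 had 2 copies, beginning 210 and 123 bases before the start, and 1.36% of all promoters held 2 or more. The CArG box stood in 3 of the 8 promoters, those of Srf, Vcl and Myl9, and in 1.63% of all promoters. Srf, whose product binds this box, had 2 copies at 82 and 62 bases before the start, and 0.0183% of all promoters held 2 or more. Vcl was the member with both motifs. For Srf, Amotl2, Tpm1, Myl9 and Vcl the start used by the table lies inside the outermost span that RefSeq gives for the gene, by 2105, 713, 459, 56 and 15 bases. These matches describe letters in the window, and no match says only that the letters are not there.

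**Figure D1:**
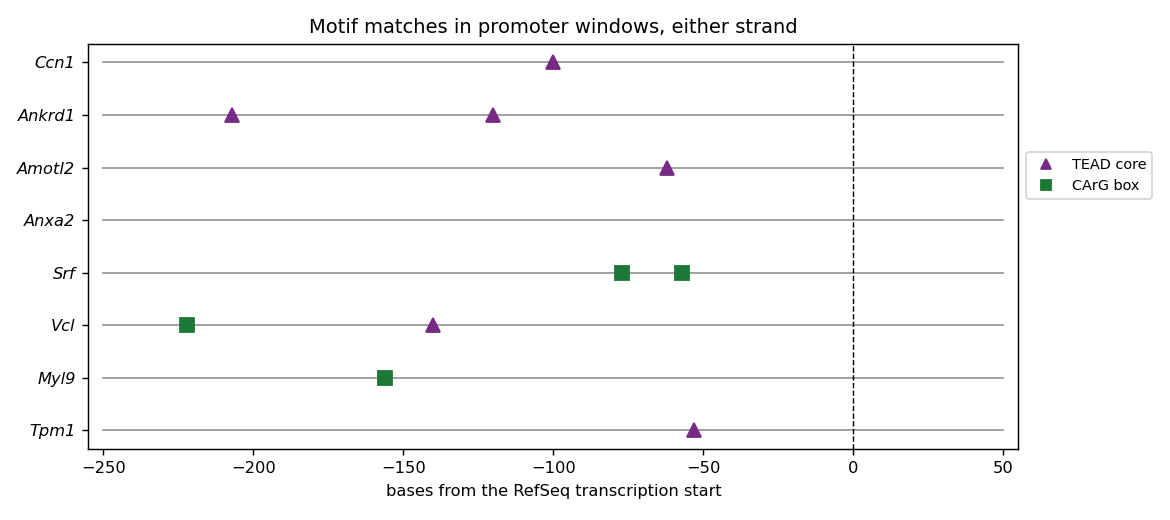
Position of each motif match, in bases from the RefSeq transcription start on the horizontal axis, for the 8 genes with a promoter entry. Triangles are TEAD cores and squares are CArG boxes, found on either strand and drawn at the centre of the match. Ankrd1 shows 2 triangles, Srf 2 squares, Vcl 1 of each and Anxa2 none.

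The values are log2 intensities per probe set. Array medians over all 41345 probe sets lay between 2.21 and 2.30 and the highest values between 13.5 and 13.8. The 10 genes lay above these medians, with means over the 14 arrays from 4.31 for Tagln to 8.39 for Vcl. Among the genes tested some were nearer the middle. Of all genes 57.6% had a lower mean than Tagln, 57.7% than Ankrd1 and 59.1% than Myl9. Such levels say nothing about one gene against another, since probe sets differ in brightness. Lmna was read by a dim probe set, whose place relative to the floxed part was not checked here, at a mean of 3.99 in KO and 4.15 in HET livers on HFD, and 3.85 in KO, 4.31 in HET and 4.47 in WT livers on chow. Its KO minus HET difference over both diets was -0.31 ± 0.09 (limma adjusted p = 0.0386). On HFD alone this difference was -0.16 ± 0.12 (adjusted p = 0.517), not past the threshold, and the arrays overlapped. Against WT on chow it was -0.62 ± 0.14 (adjusted p = 0.0393). Hepatocyte markers Alb, Apoa1, Ttr, Serpina1a, Hnf4a, Tat and Cps1 averaged 11.61 to 11.73 in KO and 11.95 to 11.99 in HET livers on HFD. On chow they averaged 11.88 to 11.93 in KO, 11.96 to 11.98 in HET and 12.02 to 12.04 in WT livers. Arrays of one group correlated at 0.989 to 0.994 and arrays of different groups at 0.980 to 0.994 over the genes tested.

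The genotype comparison asked which of these genes differ when hepatocytes lose both copies of Lmna. Anxa2, Ankrd1 and Tpm1 rose in KO livers on HFD, by 4.96-fold, 3.94-fold and 1.57-fold over HET livers. Anxa2 and Tpm1 also rose on chow, by 2.41-fold and 1.47-fold. Tagln passed the test over both diets. The best-known YAP targets Ccn1 and Ccn2, the Hippo feedback gene Amotl2, Srf itself, Vcl and Myl9 did not pass in any comparison. Differences are given below on the log2 scale with the limma standard error, and called here means an adjusted p below 0.05, corrected across all 22180 genes. Each p sets a difference against the spread between single mice within groups of 2 or 3. That spread was pooled over all 5 groups and drawn toward that of other genes.

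On HFD, 3 of the 10 genes were called higher in KO livers and none lower, where 5.50% of all genes were called higher and 2.06% lower. For 5 of the 10 (Ankrd1, Anxa2, Vcl, Tagln and Tpm1) every KO array stood above every HET array, as did 13.3% of all genes. On chow, 2 of the 10 were called higher in KO than in HET livers and none lower, beside 1.44% of all genes higher and 0.478% lower. There 5 of the 10 (Ankrd1, Anxa2, Tagln, Myl9 and Tpm1) had every KO array above every HET array, as did 9.59% of all genes. Over both diets 4 of the 10 were called higher, against 6.52% of all genes (2.90% were lower), and 4 genes, Ankrd1, Anxa2, Tagln and Tpm1, stood above HET on each diet separately, as did 4.27% of all genes. The median KO minus HET difference of the 10 genes was 0.46 on HFD and 0.40 on chow, where the median of all genes was -0.02 and -0.01.

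**Figure D2:**
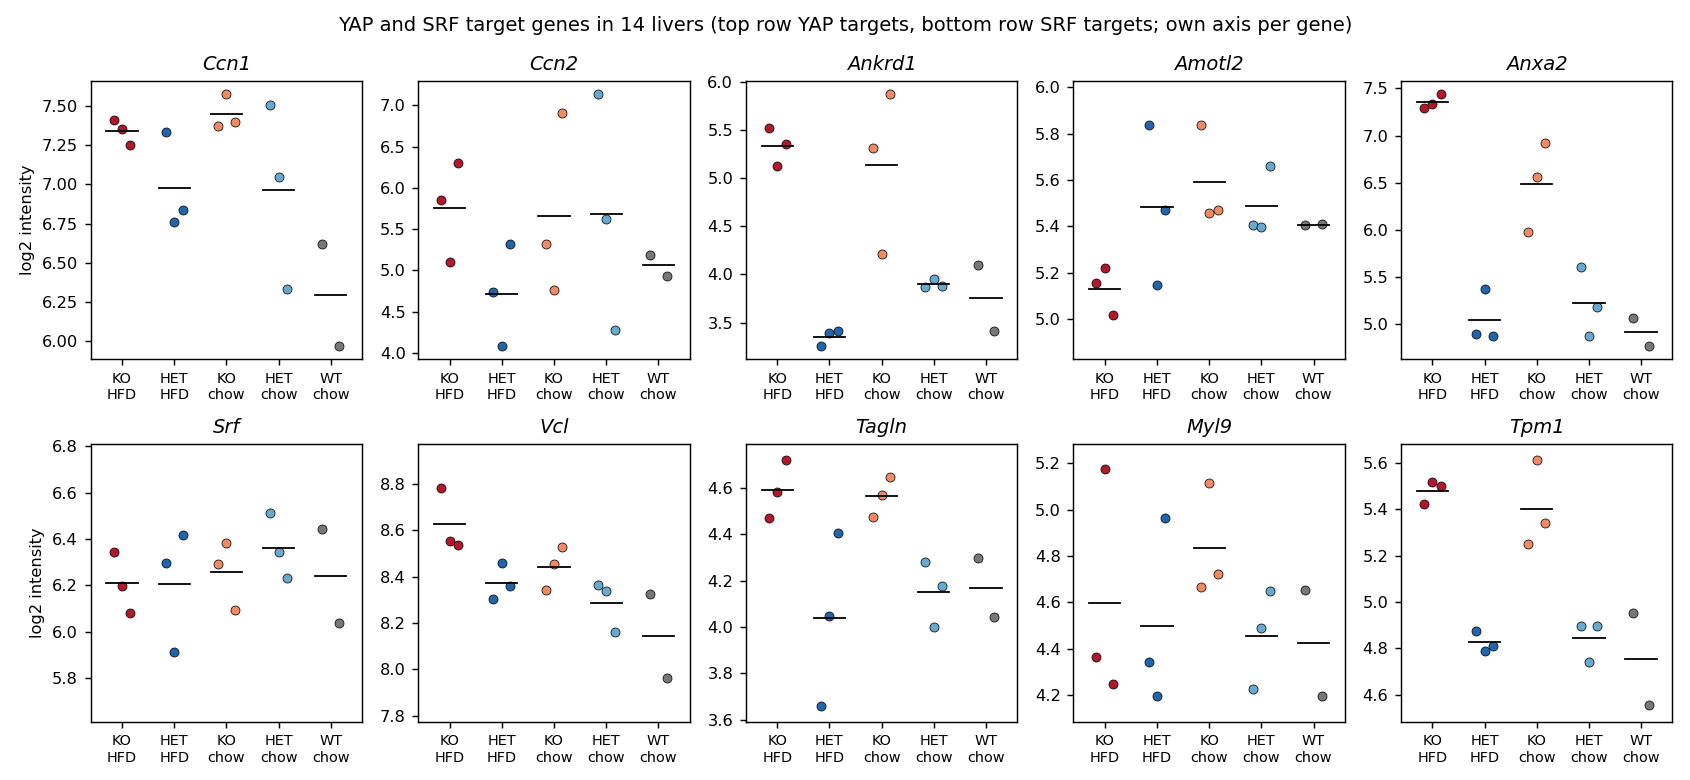
log2 intensity (vertical axis, its own range for each gene) of the 10 genes on each of the 14 arrays, with 1 point per liver and a bar for the group mean. From left to right the groups are KO on HFD, HET on HFD, KO on chow, HET on chow and WT on chow. The KO points of Anxa2, Ankrd1, Tagln and Tpm1 lie above the HET points of the same diet, while those of Srf and Ccn2 lie among them.

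Anxa2 (chr9:69453683-69491792 in GRCm38.p6) encodes annexin A2, which binds membrane phospholipids in the presence of calcium, and it differed most. On HFD Anxa2 read 7.29, 7.34 and 7.44 on the KO arrays C2, C3 and C4, against 4.90, 5.37 and 4.87 on the HET arrays A2, B1 and B2. On chow Anxa2 read 5.98, 6.56 and 6.92 on the KO arrays H1, H2 and I1, against 5.61, 4.87 and 5.18 on the HET arrays F1, F2 and P1 and 5.07 and 4.76 on the WT arrays G1 and N1. All 6 KO arrays stood above all 8 control arrays, and the 3 KO arrays on HFD stood above the 3 on chow, as they did for 9.22% of all genes. Between KO and HET livers Anxa2 differed by 2.31 ± 0.24 on HFD (95% interval 1.80 to 2.82, limma adjusted p = 1.31e-04) and 1.27 ± 0.24 on chow (0.76 to 1.78, adjusted p = 0.0153). Against WT on chow, which uses the same KO arrays, it differed by 1.57 ± 0.26 (adjusted p = 0.00787). The chow call against HET was lost without F2 (1.09, adjusted p = 0.0765), without H2 (1.23, 0.0671) or without I1 (1.05, 0.0699), and the call against WT without N1 (1.42, 0.112). In whole tissue, more cells of a type and more RNA per cell cannot be told apart, here and for each gene that follows.

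The KO group of Anxa2 was 0.87 ± 0.24 higher on HFD than on chow (unadjusted p = 0.0028, limma adjusted p = 0.166), while the HET group differed by -0.18 ± 0.24. The KO minus HET difference was larger on HFD than on chow by 1.04 ± 0.33 (95% interval 0.32 to 1.77, unadjusted p = 0.00807). Adjusted over all genes with limma, this interaction had an adjusted p of 0.333 and did not pass, in a comparison where 0.0361% of all genes were called. The order of the group means was KO on HFD, KO on chow, HET on chow, HET on HFD and WT, and neighbours among the last 3 overlapped.

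Ankrd1 (chr19:36111965-36119844) encodes an ankyrin repeat protein of the nucleus and, in muscle, of the sarcomere, and it is among the genes used most often as a readout of YAP. On HFD Ankrd1 read 5.52, 5.13 and 5.35 on the KO arrays, against 3.25, 3.40 and 3.42 on the HET arrays. On chow the KO arrays H1, H2 and I1 read 5.32, 4.21 and 5.88, against 3.87, 3.95 and 3.88 on the HET arrays and 4.10 and 3.41 on the WT arrays. All KO arrays were above all controls, and among them H2 stood closest to the controls, with H1 and I1 far higher. On HFD the KO minus HET difference was 1.98 ± 0.31 (95% interval 1.30 to 2.65, limma adjusted p = 0.00228). On chow the difference was 1.24 ± 0.31 against HET (0.56 to 1.91, adjusted p = 0.0696) and 1.38 ± 0.35 against WT (0.62 to 2.13, adjusted p = 0.0801), neither past the threshold. Without H2 both chow differences passed, at 1.70 (adjusted p = 0.00198) and 1.84 (0.00232). Over both diets it was 1.61 ± 0.22 (adjusted p = 5.56e-04).

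HET livers on HFD had the lowest group mean of Ankrd1, and all 3 were below the HET livers on chow, as were 6.83% of all genes. That diet difference was -0.54 ± 0.31 (95% interval -1.22 to 0.13, limma adjusted p = 0.594). In KO livers Ankrd1 differed by 0.20 ± 0.31 between HFD and chow (adjusted p = 0.887), and the groups overlapped.

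Ccn1 (chr3:145646971-145649985) and Ccn2 (chr10:24595442-24598683) encode secreted matricellular proteins that bind integrins, and both are standard readouts of YAP. Ccn1 read 7.41, 7.35 and 7.25 in KO livers on HFD, against 7.33, 6.76 and 6.83 in HET livers. On chow Ccn1 read 7.37, 7.58 and 7.40 in KO livers, against 7.51, 7.05 and 6.33 in HET livers and 6.62 and 5.97 in WT livers. The KO arrays were tightly grouped and high on both diets, and 1 HET array in each diet, A2 on HFD and F1 on chow, reached into their range. For Ccn1 the KO minus HET difference was 0.36 ± 0.26 on HFD (95% interval -0.19 to 0.92, limma adjusted p = 0.473) and 0.49 ± 0.26 on chow (-0.07 to 1.04, adjusted p = 0.447). Against WT, Ccn1 differed by 1.16 ± 0.29 (0.54 to 1.78, adjusted p = 0.0707) with every KO array above both WT arrays. That difference passed when F1 (adjusted p = 0.034) or P1 (0.0185) was left out, which changes the estimate of spread and not the 2 means.

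Ccn2 varied more between livers of one group than 99.8% of all genes, with a residual SD of 0.95. On HFD Ccn2 read 5.86, 5.11 and 6.30 in KO livers, against 4.73, 4.08 and 5.32 in HET livers. On chow Ccn2 read 5.32, 4.76 and 6.91 in KO livers, against 7.14, 5.62 and 4.28 in HET livers and 5.19 and 4.93 in WT livers. The highest and the second-lowest of the 14 values both came from the HET group on chow, F1 and P1. Between KO and HET livers Ccn2 differed by 1.04 ± 0.65 on HFD (95% interval -0.37 to 2.46, limma adjusted p = 0.406) and -0.02 ± 0.65 on chow (-1.43 to 1.40, adjusted p = 0.994). The chow interval reached past 1 log2 unit in both directions. A second probe set of Ccn2, at a mean of 2.05, lay near the array medians.

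Amotl2 (chr9:102717091-102733418) encodes a junction scaffold of the angiomotin family, which binds YAP and is itself switched on by YAP. On HFD Amotl2 read 5.15, 5.22 and 5.02 in KO livers, against 5.84, 5.15 and 5.47 in HET livers. In the chow groups it read 5.84, 5.46 and 5.47 in KO livers, against 5.41, 5.40 and 5.66 in HET livers and 5.40 and 5.41 in WT livers. KO livers on HFD had the lowest group mean, and all 3 were below all 3 KO livers on chow, as were 9.68% of all genes. For Amotl2 the KO minus HET difference was -0.35 ± 0.16 on HFD (95% interval -0.71 to 0.00, limma adjusted p = 0.247) and 0.10 ± 0.16 on chow (-0.26 to 0.46, adjusted p = 0.859). The difference of HFD from chow in KO livers was -0.46 ± 0.16 (adjusted p = 0.312). Of the 5 YAP targets, Amotl2 was the one whose mean was lower in KO than in HET livers on HFD.

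In the SRF group, Tpm1 (chr9:67022590-67049672) had the lowest adjusted p. It encodes a tropomyosin, which winds along actin filaments and steadies them. On HFD Tpm1 read 5.42, 5.52 and 5.50 in KO livers, against 4.87, 4.79 and 4.81 in HET livers. On chow the values of Tpm1 were 5.25, 5.61 and 5.34 in KO livers, against 4.89, 4.74 and 4.90 in HET livers and 4.95 and 4.55 in WT livers. All 6 KO arrays were above all 8 control arrays, and HFD differed from chow by 0.08 ± 0.12 in KO and -0.02 ± 0.12 in HET livers. Between KO and HET livers Tpm1 differed by 0.65 ± 0.12 on HFD (95% interval 0.39 to 0.92, limma adjusted p = 0.00655) and 0.56 ± 0.12 on chow (0.29 to 0.83, adjusted p = 0.0388). Against WT it differed by 0.65 ± 0.14 (adjusted p = 0.0339). The chow calls lay near the threshold. Against HET the call was lost without any 1 of 10 of the 14 arrays (all except G1, N1, H1 and B2), with an adjusted p of up to 0.164 and a difference of 0.45 to 0.63. Against WT it was lost without any 1 of 7 (N1, H2, I1, A2, C2, C3 or C4), with an adjusted p of up to 0.342 and a difference of 0.45 to 0.85.

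Tagln (chr9:45929628-45936058) encodes transgelin, an actin-binding protein of smooth muscle and activated mesenchymal cells. On HFD Tagln read 4.47, 4.58 and 4.72 in KO livers, against 3.66, 4.05 and 4.41 in HET livers. On chow Tagln read 4.47, 4.57 and 4.65 in KO livers, against 4.28, 3.999 and 4.18 in HET livers and 4.30 and 4.04 in WT livers. Every KO array was above every control array, most narrowly C2 above B2 on HFD. For Tagln the KO minus HET difference was 0.55 ± 0.16 on HFD (95% interval 0.20 to 0.91, limma adjusted p = 0.061) and 0.41 ± 0.16 on chow (0.06 to 0.77, adjusted p = 0.28). It passed over both diets, at 0.48 ± 0.12 (0.23 to 0.73, adjusted p = 0.0199), a fold of 1.40. That call was lost without F2 (adjusted p = 0.0532), I1 (0.0526) or C4 (0.0537), and the HFD difference passed without B2 (0.74, adjusted p = 0.0125).

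Vcl (chr14:20929383-21033676) encodes vinculin, which ties integrin adhesions and cell junctions to actin. On HFD Vcl read 8.78, 8.56 and 8.54 in KO livers, against 8.30, 8.46 and 8.36 in HET livers. On chow Vcl read 8.34, 8.46 and 8.53 in KO livers, against 8.36, 8.34 and 8.16 in HET livers and 8.33 and 7.96 in WT livers. The KO livers on HFD were above every other array of the study, by little, since the highest other value was that of I1. Between KO and HET livers Vcl differed by 0.25 ± 0.12 on HFD (95% interval -0.01 to 0.51, limma adjusted p = 0.262) and 0.15 ± 0.12 on chow (-0.11 to 0.42, adjusted p = 0.656). Vcl varied little between livers of one group, with a residual SD of 0.13.

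Srf (chr17:46546838-46558267) encodes the transcription factor itself, and its KO minus HET differences were near 0. On HFD Srf read 6.34, 6.20 and 6.08 in KO livers, against 6.30, 5.91 and 6.41 in HET livers. In the chow groups it read 6.29, 6.38 and 6.09 in KO livers, against 6.51, 6.34 and 6.23 in HET livers and 6.44 and 6.04 in WT livers. Every group overlapped every other. For Srf the KO minus HET difference was 0.00 ± 0.16 on HFD (95% interval -0.34 to 0.34, limma adjusted p = 0.998) and -0.10 ± 0.16 on chow (-0.44 to 0.23, adjusted p = 0.842). Over both diets the interval ran from -0.29 to 0.19.

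Myl9 (chr2:156775408-156781657) encodes the regulatory light chain of non-muscle and smooth muscle myosin II. On HFD Myl9 read 4.37, 5.18 and 4.25 in KO livers, against 4.34, 4.19 and 4.96 in HET livers. On chow the values of Myl9 were 4.67, 5.12 and 4.72 in KO livers, against 4.22, 4.49 and 4.65 in HET livers and 4.66 and 4.20 in WT livers. On chow the KO arrays lay above both control groups, H1 very narrowly, and on HFD C3 and B2 stood apart from the others of their groups. Between KO and HET livers Myl9 differed by 0.10 ± 0.26 on HFD (95% interval -0.46 to 0.66, limma adjusted p = 0.888) and 0.38 ± 0.26 on chow (-0.18 to 0.94, adjusted p = 0.592).

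**Figure D3:**
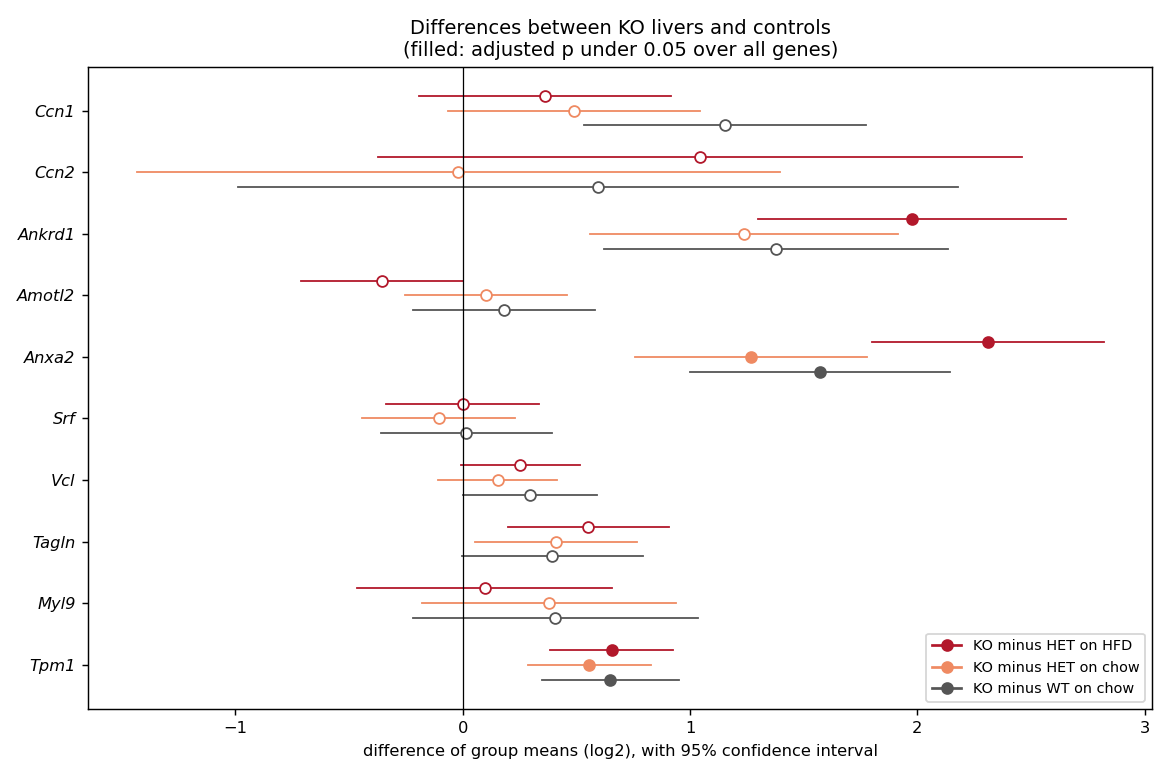
Difference of group means on the log2 scale (horizontal axis) for each gene, with 95% confidence intervals, for KO minus HET on HFD, KO minus HET on chow and KO minus WT on chow. Filled points passed an adjusted p under 0.05 over all genes. Anxa2 and Tpm1 are filled in all 3 comparisons and Ankrd1 on HFD, and the intervals of Ccn2 are the widest.

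Against WT on chow, 2 of the 10 genes were called higher in KO livers, Anxa2 and Tpm1, beside 1.24% of all genes higher and 0.410% lower. For 8 of the 10, all except Ccn2 and Srf, every KO array stood above both WT arrays, as did 15.1% of all genes. HET and WT livers on chow were compared to see whether 1 floxed copy made a difference. None of the 10 genes and none of the 22180 tested passed in limma (0% called), while at an unadjusted p under 0.05 there were 1 of the 10, Ccn1 at 0.67 ± 0.29, and 954 of all genes. The HET minus WT difference of Anxa2 was 0.31 ± 0.26 and that of Ankrd1 0.14 ± 0.35. All 3 chow comparisons share arrays, so they are not independent of each other.

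Diet was compared within a genotype. In HET livers none of the 10 genes passed between HFD and chow, where 0.198% of all genes were called, and none had an unadjusted p under 0.05. In KO livers none passed either, where 0.316% of all genes were called, and 2 of the 10, Anxa2 and Amotl2, had an unadjusted p under 0.05. No interaction of genotype and diet passed for any of the 10, and Anxa2 was the 1 gene with an unadjusted p under 0.05. A test of any difference among the 5 groups called Anxa2 (adjusted p = 1.38e-04), Ankrd1 (0.00436) and Tpm1 (0.00495), beside 6.91% of all genes, with limma's F test.

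Further YAP targets from a list of 18, of which 17 were measured, gave 5 called higher and 1 lower in KO livers than in HET livers on HFD, where 5.50% of all genes were higher and 2.06% lower. On chow none was called against HET, where 5 had an unadjusted p under 0.05 in limma. Against WT 2 were called higher, beside 1.24% of all genes. These were Nt5e and Tgfb2, the second at 0.85 ± 0.19 (limma adjusted p = 0.0451), a call lost without any 1 array other than P1, H1, B2 or C4 (adjusted p up to 0.339). Their median KO minus HET difference was 0.25 on HFD and 0.19 on chow, beside -0.02 and -0.01 for all genes. Tgfb2, a growth factor of the TGF-beta family, rose by 1.60 ± 0.17 on HFD (limma adjusted p = 1.62e-04). It read 4.83, 4.78 and 5.21 in KO livers, against 3.36, 3.51 and 3.15 in HET livers. It was also 1.25 ± 0.17 higher in KO livers on HFD than in KO livers on chow, which came from older mice (adjusted p = 0.0117, lost without H1 or H2 at up to 0.061).

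Nt5e, the cell-surface enzyme that makes adenosine from AMP, rose by 1.73 ± 0.24 on HFD (limma adjusted p = 0.00108). It read 7.44, 7.32 and 7.73 in KO livers, against 5.75, 6.32 and 5.24 in HET livers. On chow it differed from HET by 0.57 ± 0.24 (adjusted p = 0.324) and from WT by 1.61 ± 0.27 (adjusted p = 0.00882), the call against WT being lost without N1 (adjusted p = 0.142). Myof, a membrane protein of the ferlin family, rose by 1.07 ± 0.18 and the receptor tyrosine kinase Axl by 0.91 ± 0.18 on HFD (adjusted p = 0.00361 and 0.00895). Ccdc80, a secreted matrix protein, was called at 0.73 (adjusted p = 0.0355), and lost without B1, C2, C3 or C4. Calls of Tgfb2, Nt5e, Myof and Axl on HFD held without any 1 array. Nuak2, a kinase, fell by 0.92 on HFD (adjusted p = 0.0255), a call lost without any 1 of 5 arrays (A2, B1, C2, C3 or C4, adjusted p up to 0.0889).

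Among 19 measured genes of the Hippo pathway and the TEAD family, of 21 listed, 1 was called higher and 1 lower in KO livers on HFD, beside 5.50% and 2.06% of all genes, and 1 higher on chow, beside 1.44%. Each of these counts is 1 gene, too few to tell the list from all genes. On HFD the count of higher genes was 0 without B1, C2, C3 or C4 and 3 without P1. Yap1 itself did not pass, at -0.19 ± 0.12 on HFD (limma adjusted p = 0.388) and 0.20 ± 0.12 on chow (adjusted p = 0.497). Its paralogue Wwtr1, which encodes TAZ, read 7.06, 7.09 and 7.16 in KO livers on HFD, against 6.66, 6.22 and 6.11 in HET livers. On chow Wwtr1 read 6.85, 6.69 and 7.23 in KO livers, against 6.00, 5.49 and 6.46 in HET livers and 6.39 and 6.43 in WT livers. All KO arrays were above all controls. The KO minus HET difference of Wwtr1 was 0.77 ± 0.22 on HFD (adjusted p = 0.0508), 0.94 ± 0.22 on chow (adjusted p = 0.0469) and 0.86 ± 0.15 over both diets (adjusted p = 0.00347). The chow call was lost without any 1 array other than P1, A2 or B2 (adjusted p up to 0.196), and the call over both diets held without any 1 array.

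Tead1, a DNA-binding partner of YAP, read 5.14, 5.08 and 5.49 in KO livers on HFD, against 4.48, 3.88 and 4.60 in HET livers. It rose by 0.91 ± 0.23 on HFD (limma adjusted p = 0.0316), and on chow it differed by 0.32 ± 0.23 (adjusted p = 0.623). Lats1, the kinase that phosphorylates YAP, fell by 0.42 on HFD (adjusted p = 0.0317). The Tead1 call was lost without A2, B1, C2, C3 or C4 (adjusted p up to 0.126) and the Lats1 call without B1, B2, C2, C3 or C4 (up to 0.123). The median difference of the 19 genes was -0.08 on HFD and 0.13 on chow.

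Of 22 further cytoskeletal targets of SRF, all measured, 2 were called higher in KO livers on HFD, where 5.50% of all genes were, and none on chow, where 1.44% of all genes were and 6 of the 22 had an unadjusted p under 0.05 in limma. None was lower on either diet. Tagln2, the relative of transgelin in non-muscle cells, rose by 2.01 ± 0.28 on HFD (limma adjusted p = 0.00101). It read 7.46, 7.03 and 7.89 in KO livers, against 5.46, 5.43 and 5.47 in HET livers. Csrp1, a LIM protein that binds actin filaments, rose by 1.10 ± 0.15 (adjusted p = 0.00103). Both calls held without any 1 array. Over both diets 3 of the 22 were called higher, beside 6.52% of all genes. Besides Tagln2 and Csrp1 these included Tpm2, a tropomyosin, at 0.98 ± 0.25 (limma adjusted p = 0.0274), a call lost without any 1 of 6 arrays (F2, H2, A2, B2, C2 or C4). The median KO minus HET difference of these 22 genes was 0.30 on HFD and 0.19 on chow.

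Acta2, the smooth muscle actin of activated stellate cells, read 6.04, 6.54 and 6.42 in KO livers on HFD, against 4.84, 5.23 and 6.74 in HET livers. It differed by 0.73 ± 0.53 (limma adjusted p = 0.489), with the highest value in HET array B2. The cytoplasmic actin Actb differed by 0.04 ± 0.11 on HFD and 0.10 ± 0.11 on chow, neither past the threshold. Array B2 was also the highest HET array on HFD for Tagln and Myl9.

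SRF also drives genes that respond early to a stimulus. Of 9 such genes, 1 was called higher in KO livers on chow, beside 1.44% of all genes, and none on HFD, beside 5.50%, where 3 had an unadjusted p under 0.05 in limma. Their median difference was 0.31 on chow and -0.09 on HFD. The chow call was Junb, a subunit of the AP-1 factor, at 1.02 ± 0.21 (limma adjusted p = 0.0252), lost without F2, H2 or I1 (adjusted p up to 0.119). Junb read 5.49, 5.49 and 5.64 in KO livers on HFD, against 6.35, 6.04 and 6.28 in HET livers. On chow Junb read 6.16, 6.98 and 6.52 in KO livers, against 5.70, 5.29 and 5.62 in HET livers and 6.09 and 5.44 in WT livers. KO arrays lay below HET arrays on HFD and above them on chow, and the interaction was -1.70 ± 0.30 (adjusted p = 0.0567), not past the threshold. Over both diets 1 of the 9 was called higher, beside 6.52% of all genes. This was Egr2, a zinc finger factor, at 0.43 ± 0.10 (limma adjusted p = 0.0157), and the call held without any 1 array. Egr2 was dim, at means of 3.00 in KO and 2.55 in HET livers on HFD, not far above the array medians. Of the 6 SRF cofactors 1 was called higher over both diets, near the share of all genes in so short a list (6.52%). It was Mrtfb, at 0.32 ± 0.09 (limma adjusted p = 0.0373, lost without any 1 array other than G1, N1, F1, H1 or A2). None of the 6 passed on 1 diet alone, with 1 at an unadjusted p under 0.05 in limma on each diet. None of 5 measured nuclear envelope linkers passed in any KO minus HET comparison, and at an unadjusted p under 0.05 there were 0 on HFD, 2 on chow and 1 over both diets.

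**Figure D4:**
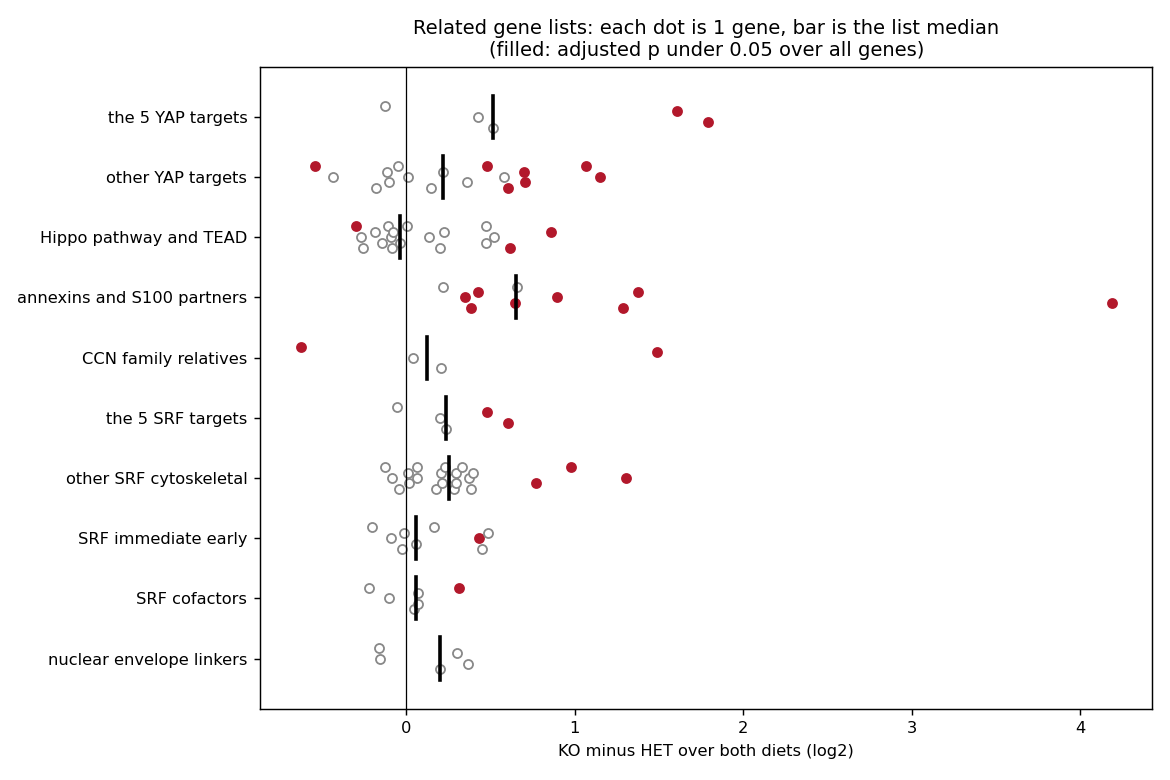
KO minus HET difference over both diets on the log2 scale (horizontal axis) for the 10 genes and for related lists. Each dot is 1 gene, filled where the adjusted p over all genes was under 0.05, and the vertical bar is the list's median. Among the other YAP targets 6 dots are filled to the right and 1, Nuak2, to the left. Over all genes 6.52% were called higher and 2.90% lower. The Nuak2 call was lost without any 1 of 9 arrays. Among the nuclear envelope linkers none is filled.

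Several of these genes are expressed mainly outside hepatocytes, so markers of the other liver cells were read beside them. The 12 macrophage markers had a mean level of 7.56 to 7.74 in KO livers and 6.89 to 7.19 in HET livers on HFD. On chow the same mean was 6.83 to 7.23 in KO, 6.50 to 7.13 in HET and 6.56 to 6.95 in WT livers. Of the 12, 3 were called higher and 1 lower in KO livers on HFD, beside 5.50% and 2.06% of all genes. The chemokine receptor Cx3cr1 was higher by 2.87 ± 0.17, Trem2 by 1.85 ± 0.23 and the complement subunit C1qb by 0.94 ± 0.21, a call lost without A2 or C2 (limma adjusted p up to 0.0669). The resident macrophage marker Timd4 differed by -1.39 ± 0.22. On chow 2 were called higher than in HET livers, beside 1.44% of all genes, Cx3cr1 by 2.61 ± 0.17 and Trem2 by 1.42 ± 0.23, and 1 was lower, beside 0.478%, Timd4 at -1.52 ± 0.22. The 8 smooth muscle and portal fibroblast markers averaged 4.03 to 4.12 in KO and 3.67 to 4.09 in HET livers on HFD, and 3.998 to 4.08 in KO, 3.74 to 3.91 in HET and 3.75 to 3.91 in WT livers on chow. Of these 8, Smtn (0.64 ± 0.17) and Fbln2 (0.81 ± 0.18) passed on HFD, where 5.50% of all genes were higher, and none on chow, where 2 had an unadjusted p under 0.05 in limma. The call of Smtn was lost without B1, B2, C2 or C3 and that of Fbln2 without A2, B1 or C4, so that neither passed without B1. The smooth muscle myosin Myh11 differed by 0.08 ± 0.44 on HFD and 0.17 ± 0.44 on chow.

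The 10 stellate cell markers averaged 6.16 to 6.46 in KO and 6.41 to 6.54 in HET livers on HFD, and 6.13 to 6.38 in KO, 6.13 to 6.74 in HET and 6.20 to 6.53 in WT livers on chow. On HFD none was higher in KO livers and 2 were lower, beside 2.06% of all genes, Reln at -0.76 ± 0.16 and Hhip at -1.79 ± 0.50. The Hhip call was lost without any 1 of 10 arrays (all except H1, I1, B2 and C3, limma adjusted p up to 0.17) and the Reln call held. On chow Lrat was lower at -1.22, beside 0.478% of all genes, a call lost without F1, F2 or I1 (up to 0.0657). Over both diets 1 was called higher, Pdgfrb, beside 6.52% of all genes, and 3 lower, Lrat, Reln and Hhip, beside 2.90%. There the calls of Pdgfrb and Lrat held without any 1 array. That of Hhip was lost without C2 or C4, and that of Reln without any 1 of 10 arrays. On HFD Pdgfrb differed by 0.81 ± 0.26 (limma adjusted p = 0.0853), not past the threshold. Lrat differed by -0.15 ± 0.23 on HFD (limma adjusted p = 0.776), where KO and HET arrays overlapped. In KO livers Lrat was 1.38 ± 0.23 higher on HFD than on chow (adjusted p = 0.0276), where 0.316% of all genes were called. Leaving out H1, C2 or C3 lost that call. The 6 measured cholangiocyte markers averaged 3.13 to 3.63 in KO and 2.95 to 3.06 in HET livers on HFD, and 3.13 to 3.75, 2.83 to 3.19 and 2.82 to 3.06 in KO, HET and WT livers on chow. None of them passed on a single diet, and 1, Epcam, was called higher over both (0.88 ± 0.21, limma adjusted p = 0.0169), beside 6.52% of all genes. Of 9 endothelial markers 1 was lower on HFD, Stab2 at -0.40 (2.06% of all genes were lower), a call lost without any 1 array other than P1 or B2, and none passed on chow. On either diet none of the mesothelial, lymphocyte, neutrophil or striated muscle markers passed, of which 1, 3, 0 and 1 had an unadjusted p under 0.05 in limma on HFD and 0, 0, 0 and 1 on chow. Of 7 hepatocyte markers 3 were lower in KO livers on HFD (Apoa1 at -0.41, Hnf4a at -0.36 and Cps1 at -0.53), where 2.06% of all genes were, and none on chow. The Cps1 call held without any 1 array, and it was the only one left without A2, B2, C2, C3 or C4. Gfap, Sctr, Synpo2, Cd3d, S100a8, S100a9, Mpo, Myh4, Mb and Myh6 were below every array median. What part cell makeup has in the differences of the 10 genes was not tested.

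The genes most like each of the 10 across the 14 arrays were found by Pearson's r among 9388 named genes with a mean above 4. This is a description, since the arrays share 5 groups and a gene that follows the groups will resemble others that do. Anxa2 was most like Pgd (r = 0.98, Spearman's rho = 0.94), Cd151 (0.97) and Rragd (0.97). Ankrd1 was most like Tmem176a, Gprc5b and Casp12, with r of 0.94, 0.94 and 0.93. Tpm1 was most like Ifi27l2b, Tmem43 and Mybl1, each at an r of 0.94.

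Tagln was most like Uap1l1, Dpt and Jpt1, each at 0.91, and Vcl was most like Lipa, Hk1 and Frmd4a, each at 0.94. Ccn1 was most like Dcn, a matrix proteoglycan of stellate cells and fibroblasts (r = 0.92, rho = 0.88), then Syne1 (0.88) and Slc1a4 (0.87). Ccn2 was most like Crip1 (0.87), Ess2 (0.85) and Hunk (0.84), and Amotl2 most like Btbd2 (0.84), Smad7 (0.83) and Ficd (0.83). Srf was most like Thap3 (0.83), Lamtor1 (0.83) and Mettl4 (0.82), and Myl9 most like Tor1a (0.80), Ctnnb1 (0.78) and Aimp1 (0.76).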

How the data were processed

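The deposited values were log2 intensities per probe set of single-channel whole-transcript arrays, normalized together by RMA, and limma is also named, per the submitters' processing notes, which give no versions. RMA sets all arrays to one distribution, so a shift shared by most genes would not be seen. From 400 ng of liver RNA, 1 mouse gave 1 array, and the small number of arrays limits the precision. Of 41345 probe sets, 23521 had 1 gene symbol, 1814 several and 16010 none. The brightest probe set stood for a gene, giving 22180 genes, of which 21994 matched a RefSeq gene ID.

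All 14 arrays were fitted in 1 model of the 5 groups with limma 3.58.1 in R 4.3.3 (lmFit and eBayes, 9 residual degrees of freedom). P-values are two-sided and Benjamini-Hochberg adjusted over all genes in each of 8 contrasts, and in the F test. The procedure was tested on simulated data. The 10 genes and all lists were chosen with earlier results of these data known, so none of their counts is independent support. From each list the text names up to 4 members that passed, by p, and for each of the 10 genes the 3 with the highest r, leaving out predicted genes, clones and small RNAs. Yap1, Acta2, Actb, Myh11, Ccdc80, Nuak2, S100a11 and Anxa6 were named besides this rule, after their values were seen, and lists without a call are given by their counts at an unadjusted p. Array weights, variance priors, filters, probe-set summaries, scalings, array-letter blocks and left-out arrays were tried as alternatives.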

Additional observations from a re-analysis of the deposited data

How the results depend on the processing

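Under the alternatives, 2018 further values of single genes were obtained. Of these, 1882 kept direction and side of the threshold, 41 lost the call, 16 gained it, 79 uncalled values changed sign and 0 called values reversed. On HFD and over both diets, Anxa2, Ankrd1 and Tpm1 were called in all 25 settings each, with an adjusted p of 1.36e-04 to 0.0126 for Ankrd1 and 0.00358 to 0.0286 for Tpm1 on HFD. Tagln over both diets was called in 19 of 25.

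The number of the 10 genes called was 2 for KO minus HET on chow. It was 1 with a trended and robust prior, 1 after a second quantile normalization, 0 with only the arrays compared, 0 at an adjusted p under 0.01, 0 without F1 and F2 together, and 0 (without F2 or I1) to 2 with each array left out. For KO minus WT on chow it was 2. It was 1 after a second quantile normalization, 0 with only the arrays compared, 1 at an adjusted p under 0.01, and 0 (without N1) to 3 (without F1 or P1) with each array left out. The cause was not tested beyond the smaller number of arrays where arrays were left out. The other counts of the 10 genes stayed within 1.5 times under every alternative run. Counts of the related lists took 2736 values in KO minus HET comparisons, of which 257 moved by more than 1.5 times. Among the annexins 3 on chow became 1 and 8 over both diets became 4 at an adjusted p under 0.01. That threshold left 1 of 3 hepatocyte markers on HFD, 0 of 2 smooth muscle markers, 0 of 2 stellate markers and 2 of 3 macrophage markers. Under some alternative the single calls of Wwtr1 and Timd4 on chow, of Lats1, Nuak2, Junb, Lrat, Stab2, Mrtfb, Egr2, Epcam and Ccn6 were lost. Over both diets 3 further SRF targets became 5 and 2 Hippo genes 1 to 4. Ccn5 was called in all 24 settings that tested it, on HFD and over both diets. A filter on mean intensity left Ccn5 out, so it was not tested there. The F test was not run with only the arrays compared. With arrays of one letter treated as a random block, the consensus correlation was 0.0506. No paired analysis was possible because the numbers in the array names stand behind letters that differ between groups, and the labels give no replicate number.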

Other observations

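Relatives of Anxa2 and of the CCN proteins were read as well. Of 10 measured annexins and S100 partners, 6 were called higher in KO than in HET livers on HFD, 3 on chow and 8 over both diets, and none lower, with limma at an adjusted p under 0.05. Over all genes 5.50% were higher on HFD, 1.44% on chow and 6.52% over both diets. The chow count was 1 without F2, P1, H2 or I1. Their median difference was 0.83 on HFD and 0.53 on chow. Anxa13, an annexin known from epithelia of the gut and kidney, differed most. It read 7.44, 6.83 and 8.25 in KO livers on HFD, against 3.30, 2.72 and 3.09 in HET livers. On chow it read 7.05, 6.62 and 7.51 in KO livers, against 3.20, 2.95 and 3.32 in HET livers and 3.61 and 3.50 in WT livers. The KO minus HET difference was 4.47 ± 0.30 on HFD (limma adjusted p = 3.87e-06) and 3.90 ± 0.30 on chow (adjusted p = 1.84e-05), and both calls held without any 1 array.

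S100a10, which binds annexin A2 in a heterotetramer, read 10.07, 10.01 and 9.97 in KO livers on HFD, against 9.22, 9.20 and 8.50 in HET livers. Its difference was 1.04 ± 0.17 on HFD (limma adjusted p = 0.00304) and 0.75 ± 0.17 on chow (adjusted p = 0.0469), the chow call being lost without any 1 array other than A2, B1 or B2 (adjusted p up to 0.178). Anxa5, which binds phosphatidylserine, differed by 1.55 ± 0.21 on HFD (adjusted p = 8.20e-04) and 1.02 ± 0.21 on chow (adjusted p = 0.0256), the chow call being lost without F2, P1, H2 or I1 (up to 0.113). Anxa3 differed by 0.78 ± 0.12 on HFD (adjusted p = 0.00235) and -0.01 ± 0.12 on chow (adjusted p = 0.984). S100a11 differed by 2.00 ± 0.40 on HFD (adjusted p = 0.00882) and 0.75 ± 0.40 on chow (adjusted p = 0.458). Anxa6 did not pass on either diet, at 0.20 ± 0.13 and 0.24 ± 0.13.

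Of the 4 relatives of Ccn1 and Ccn2, 1 was called higher on HFD, beside 5.50% of all genes. This was Ccn5, at 1.95 ± 0.36 (limma adjusted p = 0.00579). It read 4.62, 4.10 and 4.67 in KO livers on HFD, against 2.44, 2.08 and 3.03 in HET livers, so the HET values lay near the array medians. On chow it read 2.88, 4.24 and 4.55 in KO livers, against 2.80, 2.62 and 3.15 in HET livers, and did not pass (adjusted p = 0.213). Over both diets 1 of the 4 was called higher, again Ccn5, and 1 lower, beside 6.52% and 2.90% of all genes. The lower one was Ccn6, at -0.63 ± 0.18 (limma adjusted p = 0.0434), a call lost without any 1 array other than F2 or C2 (up to 0.11). On HFD the means of Ccn6 were 2.13 in KO and 2.70 in HET livers, near the array medians.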
